A study of Auricularia auricula-judae with 2 samples.

Results

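Catalases, superoxide dismutases, peroxiredoxins, cytochrome c peroxidases and alkyl hydroperoxide reductases were examined in the wood-ear mushroom, Auricularia auricula-judae, whose fruit bodies were profiled by RNA-seq. Members were taken from the Swiss-Prot description of each assembled transcript, as every row naming one of these enzymes, NADPH oxidase or a superoxide-generating protein, with glutathione enzymes left out. The rule found 77 transcripts in 70 assembled genes, of 57717 transcripts in 43428 assembled genes in all. The words NADPH oxidase and superoxide-generating matched 0 transcripts. Every member is thus described as an enzyme that removes superoxide or peroxide, as a subunit of one, or as a copper chaperone that serves one.

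The control library came from fruit bodies of mycelium labelled Non treated (0 Gy), and the irradiated library from fruit bodies of mycelium given 200 Gy of gamma radiation. Mycelium of both groups had been kept on agar (PDA) for 14 days at 25 °C, then colonised sawdust with rice bran for 30 days at 25 °C, and fruited at 18 °C and 90% humidity. The exposure preceded the sawdust culture, so the RNA describes tissue that grew afterwards and not mycelium at the time of irradiation. Each group is 1 library of unstated make-up: the labels give neither a strain nor the number of fruit bodies in it, and fruit body identity was not checked against marker genes. With 1 library per group replicate spread is unknown, and the design allows no test.

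Superoxide dismutases turn the superoxide radical into hydrogen peroxide and oxygen. The peroxide is then removed by catalase, a heme enzyme found largely in peroxisomes, by peroxiredoxins, which use a reactive cysteine and draw electrons mostly from thioredoxin, and by cytochrome c peroxidase, which draws them from cytochrome c in the mitochondrial intermembrane space. Ionising radiation splits water and yields such oxygen species directly, and mushrooms that live on wood also make hydrogen peroxide themselves, as the co-substrate of secreted peroxidases.

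Values are FPKM, fragments per kilobase of transcript relative to library size, with the isoforms of an assembled gene added up. The depth behind a value is given as scaled reads, the sum of the authors' pair of scaled values for that gene, in which 1 read was worth about 1.03 in the first value and 0.969 in the second. Only 11 of the 70 member genes (15.7%) had 100 or more scaled reads, against 19.0% of all assembled genes, and these 11 held 99.3% of the members' scaled reads. The nearest gene above this minimum had 222 scaled reads and the nearest below it had 39.3. Log2 ratios, irradiated over control, were taken on FPKM + 1, a gene was called higher or lower from a 2-fold ratio, and each gene's 95% interval is an exact Clopper-Pearson interval on the scaled values that covers counting error only. In a bulk sample, less RNA of a gene per cell and fewer of the cells that carry it cannot be told apart.

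Of the 11 genes, CCP1 and Jafrac1 (2 genes) were 2-fold or more above the control after irradiation, cta1 and a PRXQ gene (2 genes) were 2-fold or more below it, and 7 were within 2-fold. Among all 8249 assembled genes with 100 or more scaled reads, 9.32% lay that far above the control and 8.68% that far below it. Each member gene is 9.09% of 11, so the 2 genes in each direction (18.2%) exceed that background by about 1 gene, and nothing is read from the counts. The 11 genes had a median log2 ratio of 0.04 and all 8249 genes of 0.10, which is the overall shift between the libraries. With this shift removed, the same 4 genes were past 2-fold, at 1.11 for CCP1, 1.37 for Jafrac1, -1.79 for cta1 and -1.15 for the PRXQ gene. Together the 11 genes made up 0.242% of all FPKM without and 0.299% with irradiation. Their FPKM sum was 2352 without and 2944 with irradiation. Most of this difference lay in CCP1 TBIU013759 alone, with 365 and 849 FPKM.

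**Figure D1:**
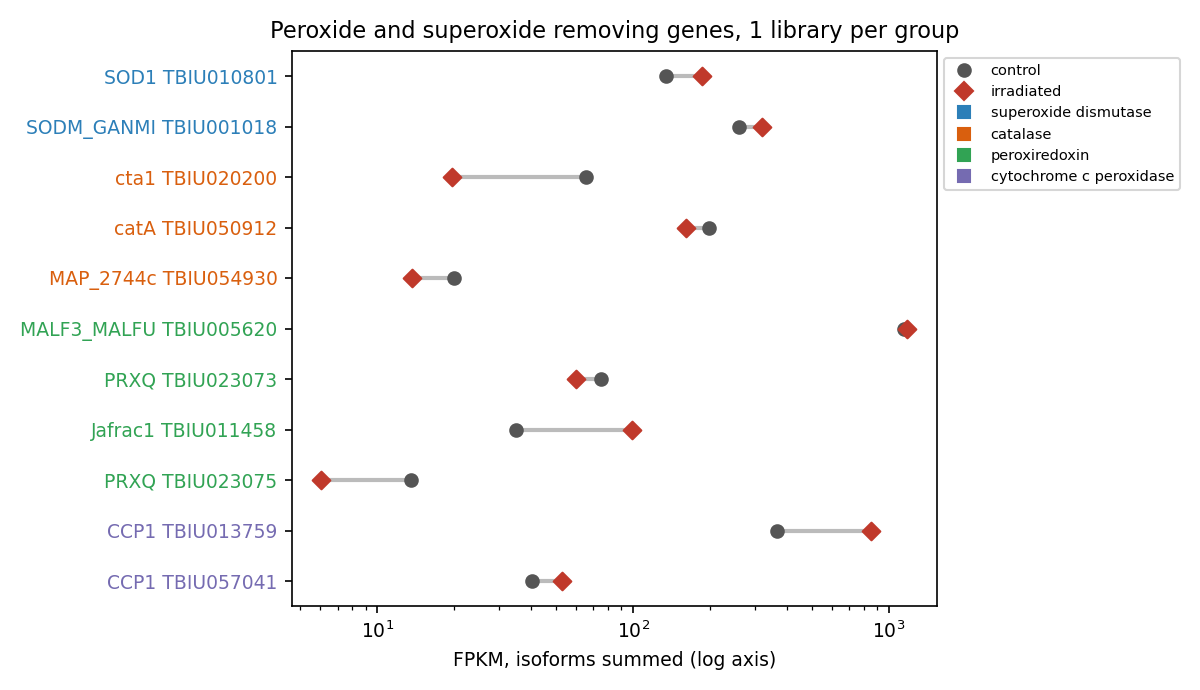
FPKM of the 11 member genes with 100 or more scaled reads, isoforms summed, in the control library (circles) and the irradiated library (diamonds), on a log axis, with gene labels coloured by role. The points lie furthest apart for cta1 (65.4 and 19.7 FPKM) and Jafrac1 (34.8 and 98.6 FPKM), while those of the most abundant gene, MALF3_MALFU (1146 and 1179 FPKM), nearly coincide.

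The 2 well-covered superoxide dismutase genes were both within 2-fold and both slightly higher in the irradiated library. SOD1 (TBIU010801), described as the copper and zinc form with no location given, had 134 FPKM without and 186 FPKM with irradiation, over 2340 scaled reads. Its log2 ratio was 0.47, with a counting interval of 0.28 to 0.52. SODM_GANMI (TBIU001018), described as the mitochondrial manganese form, had 259 FPKM without and 319 FPKM with irradiation. Its log2 ratio was 0.30 and its interval 0.07 to 0.42, over 1061 scaled reads. With the overall shift removed these ratios were 0.37 and 0.20. Of all 8249 genes, 29.2% had a higher log2 ratio than SOD1 and 38.4% a higher one than SODM_GANMI. Summed over both genes, superoxide dismutase had 393 FPKM without and 505 FPKM with irradiation. The length implied by reads per FPKM was 0.18 times the median gene for SODM_GANMI and 0.72 times for SOD1. The FPKM sum thus weighs the shorter piece most. The first and second scaled values of the same genes, in which SOD1 weighs most, summed to 1496 and 1905.

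The 3 well-covered catalase genes were all lower in the irradiated library, but only cta1 passed 2-fold. cta1 (TBIU020200), described as catalase, had 65.4 FPKM without and 19.7 FPKM with irradiation, a 3.33-fold difference. Its log2 ratio was -1.69 and its interval, -1.96 to -1.67, lay wholly beyond 2-fold, and 2.80% of all 8249 genes had a lower log2 ratio. By FPKM it ranked 2639 of 8249 genes without and 5685 with irradiation.

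Both isoforms of cta1 shared this difference. The isoform TBIU020200 had 34.8 FPKM without and 9.02 FPKM with irradiation, and the isoform TBIU020199 had 30.7 and 10.6 FPKM. The former held 53.2% of the gene's FPKM in the control and 45.9% in the irradiated library, so neither isoform alone carried the change.

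The other catalase genes stood closer to the control. catA (TBIU050912), described as catalase A, had 198 FPKM without and 161 FPKM with irradiation, a log2 ratio of -0.30 with an interval of -0.62 to -0.08. MAP_2744c (TBIU054930), matched to a catalase-related peroxidase, had 19.9 and 13.7 FPKM, a log2 ratio of -0.51 with an interval from about -0.996 to -0.24. Of all 8249 genes, 28.1% had a lower log2 ratio than catA and 20.1% a lower one than MAP_2744c. In FPKM catA was the most abundant catalase in both libraries and cta1 was not, yet catA rested on 459 scaled reads and cta1 on 2179. The length implied by reads per FPKM was 0.13 times the median gene for catA and 2.53 times the median gene for cta1. The FPKM of catA is thus that of a short assembled piece. Summed over the 3 genes, catalase had 284 FPKM without and 194 FPKM with irradiation, a sum in which catA weighs most. The first and second scaled values of the same genes, in which cta1 weighs most, summed to 2104 and 781.8.

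Peroxiredoxins did not move together: of 4 well-covered genes, 1 lay 2-fold or more above the control, 1 lay 2-fold or more below it and 2 within 2-fold. The most abundant was MALF3_MALFU (TBIU005620), described as a putative peroxiredoxin and matched by its entry name to an allergen of the skin yeast Malassezia furfur. It had 1146 FPKM without and 1179 FPKM with irradiation, ranking 84 and 61 of 8249 genes. Its log2 ratio of 0.04 became -0.06 with the overall shift removed and -0.03 on the scaled values, so its sign depended on the scaling. Its interval of -0.09 to 0.03, over 8770 scaled reads, covered 0. The length implied by its reads was 0.37 times the median gene.

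Jafrac1 (TBIU011458), described as peroxiredoxin 1 and named after the Drosophila enzyme, had the highest log2 ratio of the 11 member genes with 100 or more scaled reads. It had 34.8 FPKM without and 98.6 FPKM with irradiation, a 2.84-fold difference. Its log2 ratio was 1.48 and its interval 1.21 to 1.67, over 793 scaled reads, and 2.96% of all 8249 genes had a higher log2 ratio.

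The 3 isoforms of Jafrac1 were all higher in the irradiated library, though not to the same degree. Isoform TBIU011458 had 14.9 FPKM without and 47.2 FPKM with irradiation, and isoform TBIU011459 had 11.1 and 38.1 FPKM. Isoform TBIU011460 had 8.78 and 13.3 FPKM, a log2 ratio of 0.55 with an interval of 0.01 to 1.06. The share of the gene's FPKM in this isoform was 25.3% in the control and 13.5% in the irradiated library. All 3 isoforms carry the same description, and how reads were divided among them was the authors' estimate.

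The remaining peroxiredoxins were 2 PRXQ genes of the same assembly cluster, described as peroxiredoxin Q, which in plants is a chloroplast enzyme; the match gives the protein family and says nothing of its location in a fungus. The deeper gene (TBIU023073) had 74.8 FPKM without and 59.9 FPKM with irradiation, a log2 ratio of -0.32 with an interval of -0.57 to -0.29. Its main isoform held 90.1% of its FPKM in the control and 90.5% in the irradiated library. The shallower gene (TBIU023075) had 13.6 and 6.05 FPKM, a log2 ratio of -1.05, over 242 scaled reads, and its interval of -1.15 to -0.37 reached well under 2-fold.

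The 3 isoforms of the shallower PRXQ gene disagreed. Its isoform with the most reads, TBIU023075, had 3.44 FPKM without and 4.92 FPKM with irradiation, so it was higher there, with an interval of -0.02 to 0.95 that covered 0. Isoform TBIU023076 had 3.63 FPKM in the control and was listed at 0 in the irradiated library. Isoform TBIU059332 had 6.53 and 1.13 FPKM, carries no description and held 48.0% of the gene's FPKM in the control. Without that undescribed isoform the log2 ratio of the gene was -0.45, and with both PRXQ genes of the cluster summed it was -0.42. The 2-fold call of this gene was thus lost without the undescribed isoform, as it was on the scaled values and with a pseudocount of 5.

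**Figure D2:**
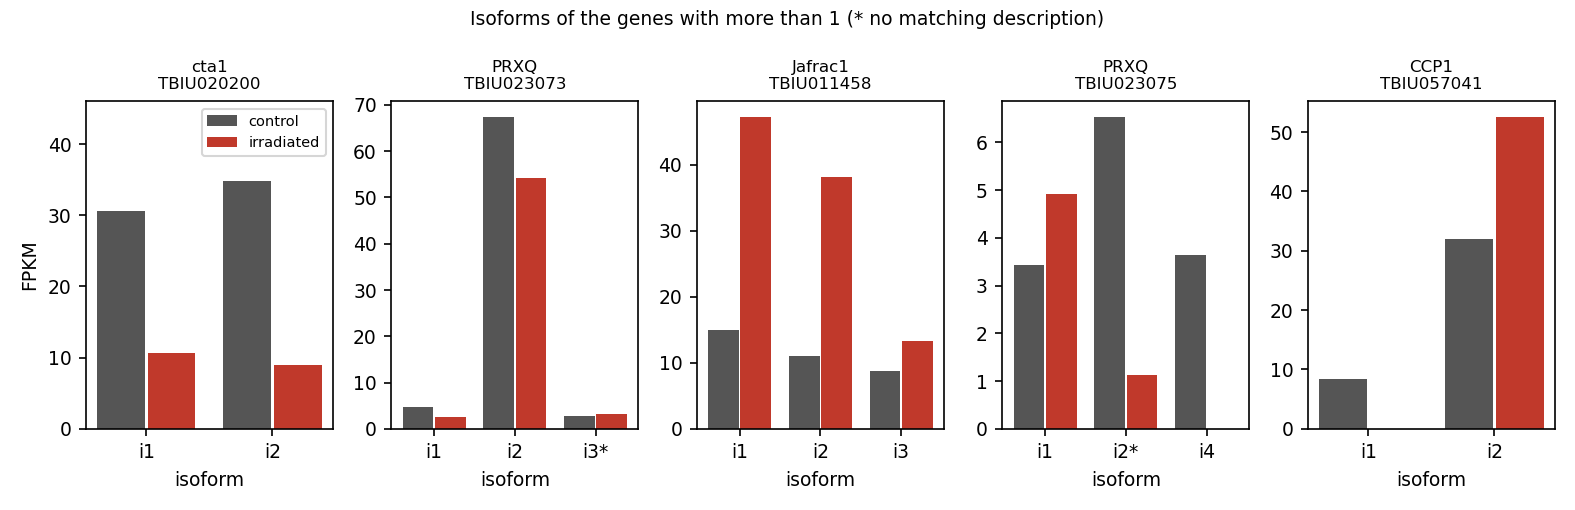
FPKM of each isoform in the control (grey) and irradiated (red) libraries, for the 5 member genes with more than 1 isoform; each panel has its own axis from 0, and an asterisk marks an isoform whose description does not match the rule. Both cta1 isoforms are lower and all 3 Jafrac1 isoforms higher in the irradiated library, whereas the isoforms of PRXQ TBIU023075 point in different directions.

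Cytochrome c peroxidase was the best covered of all members. CCP1 (TBIU013759) had 365 FPKM without and 849 FPKM with irradiation, a 2.32-fold difference, and its 29070 scaled reads were 61.2% of those of all 70 member genes. Its log2 ratio was 1.21 and its interval on the scaled values 1.10 to 1.18, wholly beyond 2-fold, and 5.55% of all 8249 genes had a higher log2 ratio. By FPKM it ranked 415 of 8249 genes without and 103 with irradiation, and in both libraries it came next to MALF3_MALFU among the 11 members.

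A shallower cytochrome c peroxidase gene (CCP1, TBIU057041) of the same assembly cluster had 40.4 FPKM without and 52.5 FPKM with irradiation. Its log2 ratio was 0.37 and its interval of -0.13 to 0.66, over 222 scaled reads, covered 0. Its isoforms differed: TBIU057041 had 32.0 and 52.5 FPKM, and TBIU057040 had 8.40 FPKM in the control and was listed at 0 in the irradiated library. Reads shared between the genes of this cluster were not tested. Summed over the cluster, cytochrome c peroxidase had 406 FPKM without and 902 FPKM with irradiation, so the cluster as a whole kept the difference seen in its main gene.

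**Figure D3:**
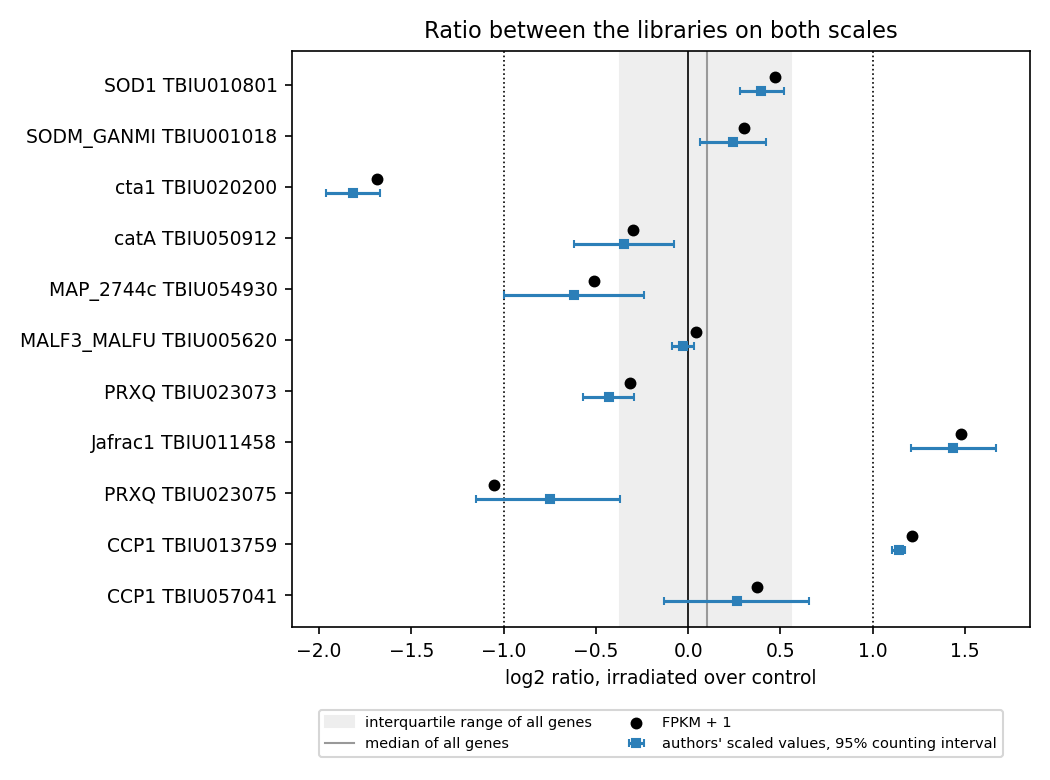
Log2 ratio of irradiated over control for the 11 member genes from FPKM + 1 (black points) and from the authors' scaled values with 95% counting intervals (blue squares and bars); the grey line and band are the median and the interquartile range of all 8249 genes, and dotted lines mark 2-fold. The intervals of CCP1 TBIU013759, Jafrac1 and cta1 lie wholly beyond 2-fold, and that of PRXQ TBIU023075 does not.

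The counting intervals of 9 of the 11 genes (81.8%) left out 0, beside 73.5% of all 8249 genes with 100 or more scaled reads. Most genes of this depth thus differed on the scaled values between these 2 libraries by more than counting error. The intervals make no allowance for error in the scaling of the libraries. Among the 11, the intervals of MALF3_MALFU and CCP1 TBIU057041 covered 0. Of the 77 member transcripts, 2 (2.60%) had a p-value at or under 0.05 in the authors' deposited table, against 2.33% of all 57717 transcripts. The authors' deposited table gave these p-values, 0.0126 and 0.0474, to PRXQ TBIU023076 and ccp-1 TBIU057040. Both transcripts had 0 FPKM after irradiation and are isoforms of genes described above. The q-value in the authors' deposited table was 1 for every transcript. For the main transcripts of the genes past 2-fold, the authors' deposited table gave p = 0.321 for cta1 TBIU020200, p = 0.437 for Jafrac1 TBIU011458, p = 0.566 for CCP1 TBIU013759 and p = 0.831 for PRXQ TBIU023075, the last with a positive log2 fold change of 0.44.

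**Figure D4:**
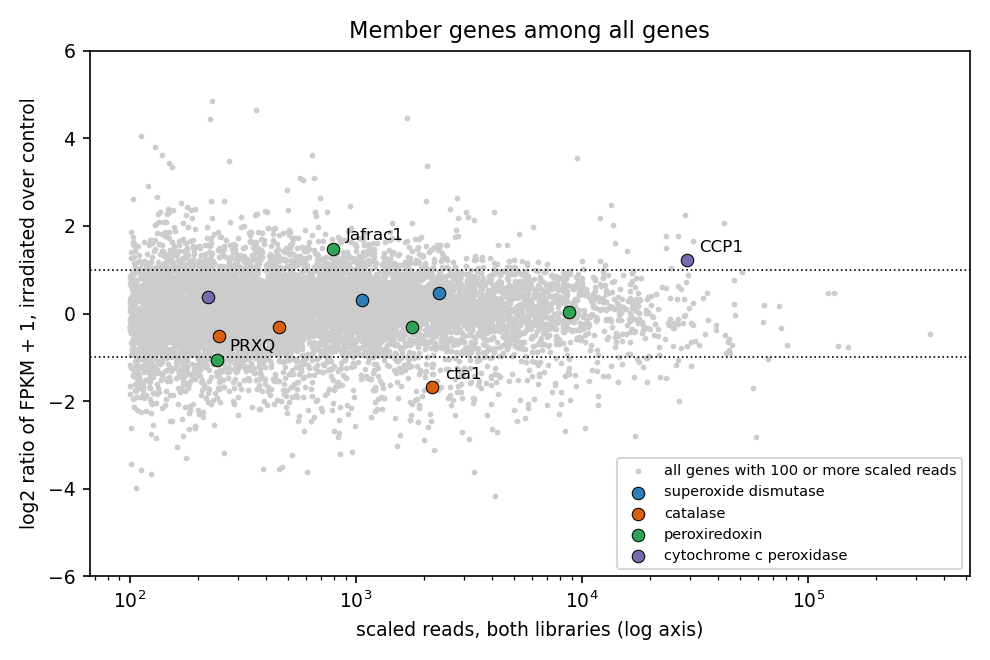
Log2 ratio of FPKM + 1, irradiated over control, against scaled reads (log axis) for the 8249 assembled genes with 100 or more scaled reads (grey) and the 11 member genes (coloured by role); dotted lines mark 2-fold. Among the members, the deep CCP1 gene stands furthest right with 29070 scaled reads, and PRXQ TBIU023075 lies near the shallow end with 242.

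The other 59 member genes had between 0.968 and 39.3 scaled reads, 57 of them under 20 and 38 under 5, too few for a ratio. They comprised 19 catalases or catalase-related peroxidases, 18 superoxide dismutases, 13 peroxiredoxins or alkyl hydroperoxide reductases, 6 copper chaperones and 3 cytochrome c peroxidases. In length they were short pieces, with a median implied length of 0.08 and a maximum of 0.47 times that of the median well-covered gene. Of the 59, 23 (39.0%) were listed at 0 without and 12 (20.3%) with irradiation, against 35.0% and 28.5% of all 35179 genes under the same minimum. The deepest were SODA TBIU000194, a manganese superoxide dismutase with 10.2 FPKM without and 39.1 FPKM with irradiation, cat-1 TBIU051900, a catalase with 7.35 and 1.51 FPKM, and Prdx4 TBIU014604, a peroxiredoxin with 3.01 and 1.20 FPKM.

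Copper chaperones of superoxide dismutase, which load copper into the copper and zinc enzyme, were seen only as such pieces. Of 6 genes, 5 were listed at 0 in the control library and 0 were listed at 0 in the irradiated library, but each had between 0.968 and 3.87 scaled reads. Among all 35179 genes under 100 scaled reads, 35.0% were listed at 0 in the control and 28.5% in the irradiated library. Only 36.4% of those genes were above 0 in both. The chaperone genes TBIU008251 and TBIU008252 also came from the same assembly cluster, and nothing is read from this count. Alkyl hydroperoxide reductase and catalase-peroxidase genes were just as shallow. The alkyl hydroperoxide reductase subunits ahpF (TBIU043072) and ahpC (TBIU050967) had 3.87 and 1.03 scaled reads. The catalase-peroxidase katG genes (TBIU026937 and TBIU040513) had 3.10 and 1.94 scaled reads, and each was listed at 0 in a different library.

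Genes that supply or surround these enzymes were taken from 7 further lists, with the members left out, and every count from them is of genes with 100 or more scaled reads. Over all lists together, 102 genes had 100 or more scaled reads, of which 12 (11.8%) lay 2-fold or more above the control and 4 (3.92%) below it by as much, beside the 9.32% and 8.68% of all genes. With the overall shift removed these counts were 11 and 6. Their median log2 ratio was 0.09, beside the 0.10 of all genes. Each list is small, and nothing is read from the counts of any single list.

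Thioredoxin and glutathione partners regenerate or work beside peroxiredoxins. Of 24 genes, 5 (20.8%) were past 2-fold above the control and 0 below it, beside 9.32% and 8.68% of all genes. The median log2 ratio was 0.18. The highest after a glutaredoxin-like gene was Aaed1 (TBIU003926), described as a thioredoxin-like protein, with 98.8 FPKM without and 254 FPKM with irradiation (log2 ratio 1.35). The lowest was a glutathione S-transferase (GSTF1_ARATH, TBIU017675), with 112 and 77.3 FPKM (log2 ratio -0.53). Genes of the same name and description, picked after the values were known, were not lower. TBIU008383 was past 2-fold above the control (1.33), and TBIU007734 (0.51) and TBIU022093 (0.02) were within 2-fold. Glutathione reductase (gtr-1, TBIU008583), picked likewise, had 71.9 and 168 FPKM (log2 ratio 1.21). The thioredoxins themselves, picked for their role after the values were known, were within 2-fold: TXN2 (TBIU009841), the mitochondrial form, had 35.4 and 65.6 FPKM (log2 ratio 0.87), and BOPC17 (TBIU015206) had 120 and 126 FPKM (log2 ratio 0.08).

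NADPH, the electron source of the thioredoxin and glutathione systems, comes in part from the pentose phosphate pathway. Of 6 genes of NADPH supply, 1 (16.7%) was past 2-fold above the control and 0 below it, beside 9.32% and 8.68% of all genes. The median was -0.22. The higher gene was a 6-phosphogluconolactonase (pgl, TBIU021138), with 4.99 FPKM without and 15.8 FPKM with irradiation (log2 ratio 1.49). Other genes of this description, picked after the values were known, stayed near the control, with intervals that covered 0. They were SPCC16C4.10 TBIU015286 (log2 ratio 0.10) and pgl TBIU006100 (-0.22). The gene with the most FPKM over both libraries was a 6-phosphogluconate dehydrogenase (GND2, TBIU048250). It had 166 and 141 FPKM (log2 ratio -0.23), with an interval that covered 0. An NAD(+) kinase (UTR1, TBIU023742) had 7.57 and 3.83 FPKM (log2 ratio -0.83). NADP-dependent malic enzyme (malA, TBIU021529), which makes NADPH from malate, had 170 and 87.0 FPKM, a log2 ratio of -0.96 that lay just within 2-fold and became -1.06 with the overall shift removed.

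The next list took genes with any isoform whose description names the peroxisome, the organelle that houses most catalase. The main descriptions of some, such as cao1 (TBIU016880, copper amine oxidase 1), do not name it. Genes of this list mostly stayed within 2-fold. Of 21 genes, 1 (4.76%) was past 2-fold above the control and 0 below it, beside 9.32% and 8.68% of all genes. The median was 0.27. The higher gene was an NADH pyrophosphatase (SPBC1778.03c, TBIU015168), with 16.6 FPKM without and 37.5 FPKM with irradiation. Its main description does not name the peroxisome either. The most abundant, POX18 (TBIU009322), described as an oleate-induced peroxisomal protein, had 585 and 767 FPKM (log2 ratio 0.39). The lowest was an ascorbate peroxidase (APX5, TBIU005525), with 163 and 88.3 FPKM (log2 ratio -0.88).

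Heme is the cofactor of catalase and of cytochrome c peroxidase. Of 10 heme synthesis genes, 0 were past 2-fold above the control and 1 (10%) below it, beside 9.32% and 8.68% of all genes. The median was -0.10. A porphobilinogen deaminase (HEM3, TBIU009306) had 75.3 FPKM without and 31.2 FPKM with irradiation (log2 ratio -1.24). The other HEM3 genes, picked after the values were known, were lower but within 2-fold. They were TBIU012857 (-0.52), whose interval on the scaled values of -0.45 to 0.08 covered 0, and TBIU019534 (-0.43). The most abundant gene of the list was HEM2 (TBIU052789), whose enzyme makes porphobilinogen. It had 1425 and 2031 FPKM (log2 ratio 0.51), on the other side of the control from the HEM3 genes.

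The list meant for oxidases that release hydrogen peroxide was matched loosely by text, and its counts are not those of such oxidases alone. Of its 25 genes, 3 (12%) were past 2-fold above the control and 1 (4%) below it, beside 9.32% and 8.68% of all genes. The median was 0.19. Besides oxidases it held purine permeases and a phosphoribosyltransferase (hpt1) matched by the word xanthine, pyranose dehydrogenases (pdh3), and alkJ, betA, gcv1 and ZRT1, whose main descriptions name no such oxidase. Of the 3 higher genes, 2 were such permeases, of which uapC (TBIU021187, log2 ratio 1.08) was within 2-fold with the overall shift removed. The same shift took alkJ (TBIU019112), an alcohol dehydrogenase, from -0.96 to -1.06, past 2-fold below the control. The most abundant and highest gene was a putative bifunctional amine oxidase (DDB_G0291301, TBIU020209), with 260 FPKM without and 888 FPKM with irradiation (log2 ratio 1.77). Galactose oxidase (GAOA, TBIU022048), a copper enzyme that oxidises sugars with release of peroxide, had 33.1 and 13.4 FPKM (log2 ratio -1.25), but its interval on the scaled values was -0.63 to -0.23, so the 2-fold call was lost there.

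The list of other heme peroxidases, mostly peroxidases and peroxygenases that spend hydrogen peroxide on organic substrates, had the widest spread. Of 12 genes, 2 (16.7%) were past 2-fold above the control and 2 (16.7%) below it, beside 9.32% and 8.68% of all genes. The median was -0.19. The lowest was COP4 (TBIU007440), with 70.7 FPKM without and 25.0 FPKM with irradiation (log2 ratio -1.46). It is described as a linoleate 10R-lipoxygenase, not as a peroxidase or peroxygenase, and was matched by the word linoleate. An aromatic peroxygenase gene (APO1, TBIU005931), whose enzyme inserts oxygen from peroxide into aromatic compounds, had 356 FPKM without and 1692 FPKM with irradiation (log2 ratio 2.25). The other aromatic peroxygenase genes, named after the values were known, did not move together. APO1 TBIU020355 was also higher (1.48). APO1 TBIU048530 (-0.44), APO TBIU022295 (-0.28) and APO1 TBIU020356 (-0.22) were lower, within 2-fold and with intervals that covered 0. Chloroperoxidase (CPO, TBIU004010) had 283 and 102 FPKM (log2 ratio -1.46).

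Of 29 genes on the list of oxidative stress regulators, 6 had 100 or more scaled reads, 0 of these were past 2-fold, and their median log2 ratio was 0.22. HOG1 (TBIU009040), a stress-activated protein kinase in yeast, had 794 FPKM without and 554 FPKM with irradiation (log2 ratio -0.52). CIN5 (TBIU005828), described as the transcription factor YAP4, had 274 and 169 FPKM (log2 ratio -0.70). Of the others, 3 matched only as pH-response regulators.

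**Figure D5:**
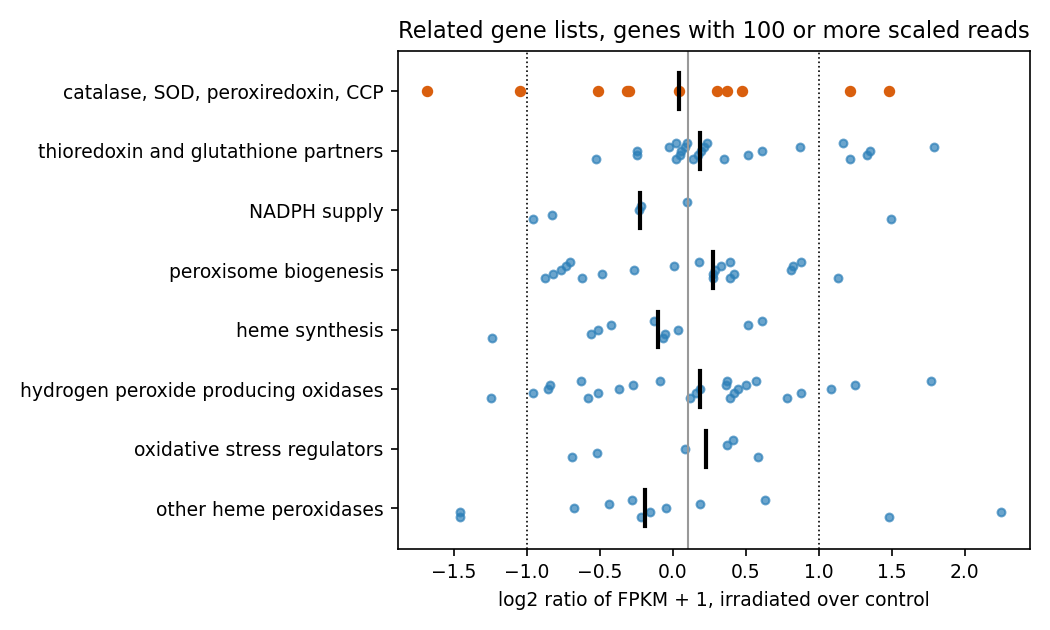
Log2 ratio of FPKM + 1, irradiated over control, of each gene with 100 or more scaled reads in the 7 related lists (blue) and among the 11 members (orange); black bars are list medians, the grey line is the median of all 8249 genes and dotted lines mark 2-fold. List medians lie between -0.22 for NADPH supply and 0.27 for the peroxisome list. The widest spread is that of the list of other heme peroxidases, from -1.46 to 2.25.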

How the data were processed

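Total RNA of fruit bodies was sequenced by the authors as 2 libraries, and 1000 ng of RNA went into each, per the labels. The authors deposited 1 table of assembled transcripts with FPKM to 2 decimals per library, per the file headers. The deposited log2 fold change is the log2 ratio of another pair of deposited values without sample names, here called scaled values. The p-values and q-values were computed by the authors, per the file headers. Not given in the sources used here are the assembler, the aligner and the authors' test. Libraries were matched to groups by the sample names in the headers.

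Among genes of 1 transcript, 95.0% and 96.0% of the first and second scaled values up to 20 reads were within 0.05 of whole multiples of 1.03 and 0.969. In such units the values sum to about 8585170 and 8676730 reads. FPKM and scaled values were summed over isoforms. A pseudocount of 1, a minimum of 100 scaled reads and a 2-fold ratio were used. FPKM sums were 970111 and 983895. Precision is set by depth, as the counting intervals show; they hold no variation between fruit bodies or library preparations. Implied length is scaled reads per FPKM over that of the median gene.

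Every member gene with 100 or more scaled reads was named, then the 3 deepest below it, and from each related list the 2 highest, 2 lowest and most abundant could be. Some further list genes were named after their values were known. Members and lists were chosen with earlier results of these data known. No sequences were used here. Calculations used Python 3.11.15, pandas 2.3.3, NumPy 2.4.6, SciPy 1.17.1 and matplotlib 3.10.9, and the calling was run on simulated data. The simulated data held counting error only. They cannot show how the calls would hold across fruit bodies, library preparations or scaling. Alternatives were another scaling, other depth and level minimums, pseudocounts of 0.1 and 5, the scaled values, other treatments of isoforms and, added after seeing the data, summed assembly clusters.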

Additional observations from a re-analysis of the deposited data

How the results depend on the processing

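CCP1 TBIU013759, Jafrac1 and cta1 kept their direction and stayed past 2-fold under every alternative that left them measured; a minimum of 1000 scaled reads removed Jafrac1. The PRXQ gene TBIU023075 did not: its log2 ratio of -1.05 was 0.42 for the isoform with the most scaled reads, where its other isoforms were left out. The number of members at least 2-fold lower was therefore 1 in place of 2 with that isoform, with isoforms whose own description matches, with a pseudocount of 5, with the scaled values and with assembly clusters summed. With a mean of 10 FPKM or more, 5 of 13 members were higher and 1 lower, beside 12.6% and 12.1% of all genes. With no minimum of reads, 28 of 70 were higher and 20 lower (48 either), beside 32.7% and 27.3% of all genes, and with a minimum of 1000, 1 of 6 was higher and 1 lower (2 either), beside 6.53% and 7.13%. The median of the members was 0.40 with no minimum, 0.37 with a mean of 10 FPKM or more and 0.30 for the isoform with the most reads, beside 0.04. Over the related lists, 122 genes were higher and 94 lower with no minimum, 7 and 1 with a minimum of 1000, 9 lower with a minimum of 20 and 7 lower with a mean of 10 FPKM or more. Of 115 recomputed member values 112 kept their sign. The other changes are those of MALF3_MALFU, whose ratio is near 0. No paired analysis was possible because each group has 1 library, and no library could be left out for the same reason. Depth limits the 59 shallow members, for which no ratio is given.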

Other observations

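APX5, a match to ascorbate peroxidase, another heme enzyme that removes hydrogen peroxide, lay outside the rule and was looked at after its values had been seen. Its 3 genes with 100 or more scaled reads were all lower in the irradiated library and all within 2-fold. APX5 TBIU005525 had 163 FPKM without and 88.3 FPKM with irradiation, and its log2 ratio was -0.88 (95% counting interval -1.03 to -0.89). APX5 TBIU047714 had 58.6 and 34.8 FPKM (log2 ratio -0.73), and APX5 TBIU015625 had 7.99 and 5.41 FPKM (log2 ratio -0.49) over 119 scaled reads. The 3 catalase genes also stood below the control, of which only cta1 was past 2-fold, while CCP1 TBIU013759 stood above it. Among all 8249 genes the lower quartile of the log2 ratio was -0.37, and nothing is read from the shared direction. These are values of 1 library per group.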
